A study of Mus musculus with 6 samples.

Results

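Gm13212, Zfp984, Zfp990, Zfp992, Zfp982, Zfp980, Zfp600, Zfp988 and Zfp987 are 9 zinc finger genes of a cluster on distal chromosome 4 of the mouse, and they were taken by gene symbol from a table of 55487 genes. They were chosen by their place near the Prdm16 gene and with the difference between iSM KO and control aortas in view, so the differences of the 9 genes between these groups, calls included, are a description and not a test. The 9 genes span chr4:145510759-147809788 in GRCm38 (mm10), a stretch of 2.299 Mb. Zfp990 lies farthest from Prdm16 (chr4:154316125-154636873, minus strand), 8.777 Mb away, and Zfp984 lies nearest, 6.506 Mb away. Of the 9 genes, 8 are on the plus strand and Zfp984 is on the minus strand.

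The libraries were made from total RNA of aortas of male mice after depletion of ribosomal RNA. The 3 control mice were wild type at Prdm16 and the 3 iSM KO mice were homozygous for a Prdm16 allele with a floxed exon 9, and all strains were kept on a C57BL/6 background. Both groups carried the Myh11-CreERT2 transgene, which is linked to the Y chromosome and drives recombination in smooth muscle cells, both received tamoxifen as adults, and both were sampled at baseline, without injury. Prdm16 encodes a zinc finger transcription factor of the PR domain family. The adventitia was removed before RNA was extracted, and the RNA is that of the remaining tissue, not of sorted smooth muscle cells. The groups differ in the allele they carry at Prdm16 on this same chromosome, and the loss of Prdm16 cannot be told apart from any other difference linked to that allele.

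KRAB zinc finger genes form the largest family of transcription factors in mammals and often lie in clusters of tandem copies. Their proteins carry a KRAB domain, which recruits the corepressor encoded by Trim28, and an array of C2H2 zinc fingers, which binds DNA. Many of them silence retrotransposons, and the copies of a cluster differ mainly in their fingers.

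For each gene the GENCODE M21 transcript whose translation held the most C2H2 matches was taken, and a script found the core of a KRAB A box in the translations of all 9. The number of C2H2 matches ranged from 7 in Zfp982 to 20 in Gm13212, and the length of the protein from 368 residues in Zfp982 to 799 in Gm13212. Zfp990 and Zfp980 had 13 matches each, Zfp987 and Zfp988 had 14, Zfp600 had 17, and Zfp992 and Zfp984 had 11. The coding stretch of 90 bases that holds the KRAB core is printed for each distinct sequence, to show how close the copies are at one place that all 9 share. Each lies in 1 exon and is read 5′ to 3′ on the coding strand, and capitals mark bases that differ from Gm13212. In Gm13212 the stretch is at chr4:145620570-145620659 (plus strand, exon 3), in Zfp984 at chr4:147757727-147757816 (minus strand, exon 5) and in Zfp990 at chr4:145534828-145534917 (plus strand, exon 4).
Gm13212: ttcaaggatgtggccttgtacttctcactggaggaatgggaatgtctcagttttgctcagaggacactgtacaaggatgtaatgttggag
Zfp984: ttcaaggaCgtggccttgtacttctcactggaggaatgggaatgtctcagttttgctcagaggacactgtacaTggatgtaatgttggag
Zfp990: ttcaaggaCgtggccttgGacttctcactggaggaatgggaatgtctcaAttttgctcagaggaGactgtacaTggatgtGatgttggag
Zfp992: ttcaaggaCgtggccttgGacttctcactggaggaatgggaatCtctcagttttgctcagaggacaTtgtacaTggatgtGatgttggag
Zfp982: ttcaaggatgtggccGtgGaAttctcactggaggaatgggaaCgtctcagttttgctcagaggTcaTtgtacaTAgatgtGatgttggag
Zfp987 and Zfp988: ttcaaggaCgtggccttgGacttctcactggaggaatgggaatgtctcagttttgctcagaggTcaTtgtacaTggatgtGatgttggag
Zfp980 and Zfp600: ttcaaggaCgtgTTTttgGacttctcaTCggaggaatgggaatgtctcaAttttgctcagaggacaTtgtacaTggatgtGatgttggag

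Zfp984 differed from Gm13212 at 2 of these 90 bases, Zfp990, Zfp992, Zfp987 and Zfp988 at 6 each, Zfp982 at 9, and Zfp980 and Zfp600 at 11. Zfp987 could not be told from Zfp988, nor Zfp980 from Zfp600, over this stretch. Over the aligned coding sequence the same pairs were closest. Gm13212 and Zfp984 were identical at 97.14% of 1641 aligned bases, Zfp987 and Zfp988 at 95.05% of 1899, and Zfp980 and Zfp600 at 94.42% of 1935. Zfp982 had no close copy, with 82.94% to 85.51% identity to each of the other 8. The heat map of identity shows these 3 pairs as its darkest squares off the diagonal.

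Such likeness limits how well reads can be given to 1 gene. This transcript of each gene was cut into all windows of 150 bases, the length of 1 read of a pair, and a window was counted as shared when its bases also occur in a transcript of another gene. Zfp990 and Zfp982 shared 0% of their windows, Gm13212 shared 15.9%, Zfp984 16.2%, Zfp992 21.34%, Zfp988 28.71%, Zfp980 30.8%, Zfp600 56.78% and Zfp987 60.14%. Of the 548 shared windows of Gm13212, 544 were found in Zfp984. The longest run of bases in common was 324 bases for Gm13212 and Zfp984, 532 for Zfp987 and Zfp988, and 693 for Zfp980 and Zfp600. With windows of 50 bases the share rose to 65.14% in Gm13212, 26.98% in Zfp990 and 6.03% in Zfp982. How reads that match several genes were divided is not stated, and the counts of all 9 members are uncertain for this reason. Of the 30 values of the 5 members that were tested, 21 were not whole numbers (70%), against 29.4% of the 99390 values of all tested genes, and a value that is not whole cannot be a plain count of reads. This holds for Zfp990 and Zfp982 too, with 3 and 2 such values, although no window of 150 bases is shared.

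**Figure D1:**
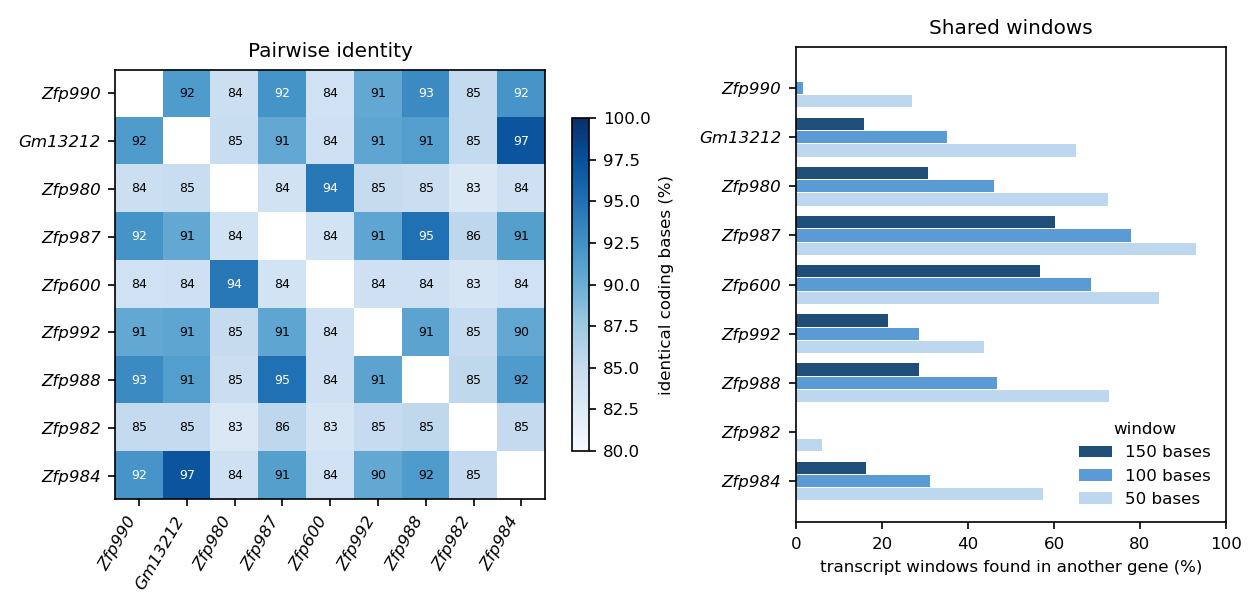
Left, percentage of identical bases in the aligned coding sequence for each pair of the 9 genes, in their order along the chromosome (darker is more alike). Right, percentage of transcript windows of 150, 100 and 50 bases whose sequence is also found in another gene. Gm13212 and Zfp984 are the closest pair at 97.14%, and at 150 bases Zfp990 and Zfp982 have no shared window.

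Values are given as counts as deposited and as CPM, the field's unit of counts relative to the library total, here scaled by edgeR's TMM method. The libraries held 24911584 to 40460411 counts, so 1 count was worth 0.0245 to 0.0419 CPM, and a count of 0 allows up to 3 counts in that library. A gene was tested if every library of 1 group or the other held more than 10 rounded counts of it, which left 16565 genes. Of the 9 members, 5 passed (Gm13212, Zfp984, Zfp990, Zfp992 and Zfp982). Zfp990 passed through the iSM KO group alone.

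Prdm16 itself was lower in the iSM KO aortas, as the labels ask, from 182.7, 222.7 and 178.3 CPM in the controls to 93.64, 112.5 and 79.71 CPM (log2 fold change -1.03, standard error 0.14, edgeR FDR = 0.00265). The fold change was over 2 in 4 of the 6 fits that left out 1 library, and was -0.92 without Control replicate 2 and -0.92 without iSM KO replicate 3. Smooth muscle markers summed to 22470 to 27480 CPM in controls and 24240 to 26710 CPM in iSM KO, with all 8 detected, so the label of the tissue holds. Adipocyte markers summed to 10.11 to 126.3 CPM in controls and 1.83 to 5.93 CPM in iSM KO, with 4 of 5 tested and all 4 lower at an FDR under 0.05, and none of the 5 was at 0 in all libraries. Brown adipocyte markers, with 2 of 3 tested and 1 lower at that FDR, summed to 3.34 to 42.01 CPM in controls against 2.55 to 4.58 CPM in iSM KO. Cardiomyocyte markers, with 3 of 5 tested and 1 higher, summed to 115.2 to 144.1 CPM in controls against 153.5 to 206.5 CPM in iSM KO. T cell markers, with 1 of 4 tested and that 1 higher, summed to 0.15 to 0.75 against 0.85 to 1.20 CPM. Skeletal muscle markers, with 1 of 4 tested and 0 lower at that FDR, summed to 2.68 to 3.74 against 2.03 to 2.38 CPM. Of the 8 smooth muscle markers 2 were higher. The part of these markers in the values of the zinc finger genes was not tested. In bulk RNA, fewer cells of a type and less RNA per cell cannot be told apart.

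The members did not move as a block. Gm13212 and Zfp984, the closest pair in sequence, were far lower in the iSM KO aortas, Zfp990 was far higher, Zfp992 and Zfp982 differed least of the tested genes, and the other 4 were close to the limit of detection in both groups.

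Gm13212 (ENSMUSG00000078502, chr4:145585166-145625345) encodes the protein with the most fingers of the 9. Its counts were 790.04, 412.71 and 350.28 in controls 1 to 3 and 22.08, 14.41 and 22 in iSM KO mice 1 to 3. The lowest control was far above the highest iSM KO library, and control 1 stood above the other two. In CPM, the controls were at 23.55, 10.73 and 14.66 and the iSM KO libraries at 0.54, 0.40 and 0.60, and the fitted log2 fold change was -4.97 with a standard error of 0.34. Left out in turn, the libraries moved this value between -5.20 and -4.60.

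Zfp984 (ENSMUSG00000078495, chr4:147753974-147809788) had counts of 309.76, 222.84 and 197.01 in controls and 26.72, 23.79 and 53 in iSM KO. The groups did not overlap, and iSM KO 3 was the highest of its group. The normalised level was 7.76 ± 1.77 CPM (SD, n = 3) in controls against 0.93 ± 0.45 CPM (SD, n = 3) in iSM KO, and the log2 fold change was -3.05 with a standard error of 0.32. The lincRNA Gm20707 overlaps Zfp984 on the same strand, so reads of the overlap are uncertain. Gm20707 was at 20.78, 15.19 and 11.52 counts in controls and 8, 17.8 and 13 in iSM KO, and its groups overlapped.

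Zfp990 (ENSMUSG00000078503, chr4:145510759-145539188) comes directly before Gm13212 in the order of the 9 along the chromosome and showed the opposite difference. Its counts were 0, 1 and 2 in controls and 62.63, 83.66 and 47.1 in iSM KO. Every iSM KO library was above every control, and the controls held 3 counts in all. The ratio of the group totals, scaled by library size, was 55.2 (95% exact interval 18.6 to 270.1, for counting error only). The fitted log2 fold change was 5.63 (standard error 0.62), which depends on the prior count since the controls are near 0, and it was 6.66 without Control replicate 3. None of its windows of 150 bases is found in another gene, but its 3 iSM KO values are not whole numbers, and the iSM KO level of 1.74 ± 0.59 CPM (SD, n = 3) is low beside that of Gm13212 in controls.

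Zfp992 (ENSMUSG00000070605, chr4:146449023-146470292) was measured in all libraries, at 259.58, 174.16 and 128.55 counts in controls and 269.25, 227.48 and 196.7 in iSM KO. In CPM the groups overlapped, at 7.75, 4.52 and 5.40 in controls and 6.59, 6.50 and 5.39 in iSM KO. The log2 fold change was 0.06 (standard error 0.21) and turned to -0.10 without Control replicate 2, so no direction can be given.

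Zfp982 (ENSMUSG00000078496, chr4:147492417-147513486), the shortest protein of the 9, had 93, 85.98 and 58 counts in controls and 82.72, 45 and 81 in iSM KO. In CPM the controls were at 2.77, 2.24 and 2.43 and the iSM KO libraries at 2.03, 1.29 and 2.21. The groups were apart only by the gap between 2.24 CPM in control 2 and 2.21 CPM in iSM KO 3. The log2 fold change was -0.42 (standard error 0.25).

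The other 4 genes gave few counts, and their values are bounded by counting error. Zfp980 (ENSMUSG00000058186, chr4:145670685-145704441) had 7.29, 1.08 and 10.56 counts in controls and 6.32, 2.43 and 0 in iSM KO, a ratio of group totals of 0.36 (95% exact interval 0.14 to 0.86). Zfp600 (ENSMUSG00000066007, chr4:146156824-146198755), its closest copy, had 0, 8.25 and 0 counts in controls and 0, 5.08 and 4.9 in iSM KO, a ratio of 1.07 (0.38 to 3.11). The groups of both genes overlapped, and in Zfp600 control 2 alone carried the counts of its group. Zfp988 (ENSMUSG00000078498, chr4:147305674-147333734) had 0, 1.09 and 2.73 counts in controls and 8.02, 1.17 and 6.16 in iSM KO, a ratio of 3.20 (1.02 to 13.25). Zfp987 (ENSMUSG00000066009, chr4:146097298-146126621) had 0 counts in 5 of 6 libraries and 1.16 in iSM KO 2, under the floor of 3 counts in both groups, so no fold is given. The groups of Zfp988 and of Zfp987 overlapped too. The intervals hold no spread between mice.

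**Figure D2:**
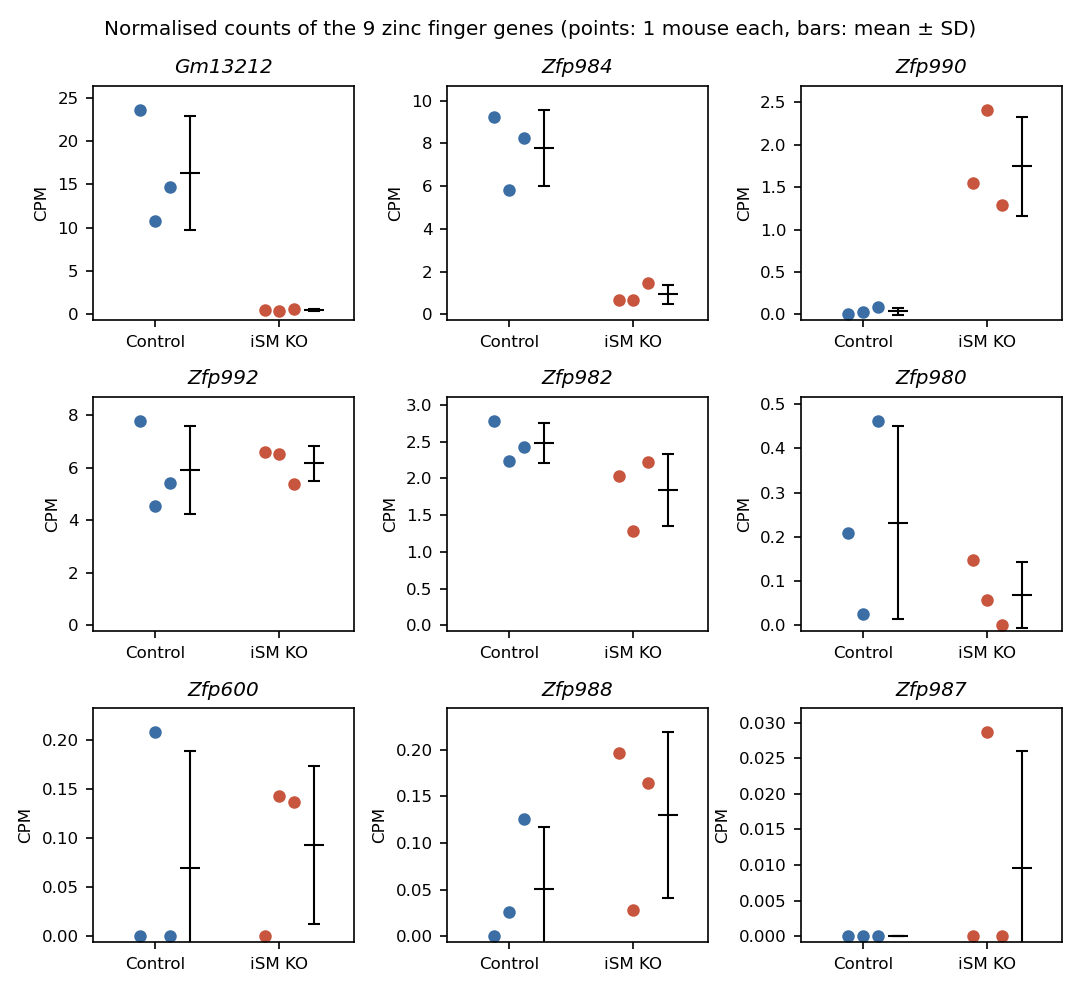
CPM of each of the 9 genes in the 3 control and 3 iSM KO libraries, with 1 point per mouse and the mean ± SD beside the points; each panel has its own scale. Gm13212 falls from 10.73 to 23.55 CPM in controls to at most 0.60 CPM in iSM KO, Zfp990 is at most 0.08 CPM in controls, and the groups overlap in Zfp992 and in the 4 genes with few counts.

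Of the 5 members tested, 3 passed the threshold (an FDR under 0.05 together with a fold change over 2), 1 higher (Zfp990) and 2 lower (Gm13212 and Zfp984). Over all tested genes 2.78% passed, 1.40% higher and 1.38% lower. Because the members were chosen with this difference known, and Zfp990 was tested only through the group where it is high, nothing is read from these counts. The median log2 fold change was -0.42 over the 5 members and -0.01 over all tested genes.

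Levels of different genes were compared per kilobase of exon. In controls the order by CPM per kb was Gm13212 at 4.54 ± 1.83, Zfp984 at 2.67 ± 0.61, Zfp982 at 1.67 ± 0.18 and Zfp992 at 1.29 ± 0.37 (SD, n = 3), followed by 5 genes at 0.058 CPM per kb or less. Gm13212 and Zfp984 overlapped in their libraries, as did Zfp982 and Zfp992, while Zfp984 lay above Zfp982 and Zfp992 above Zfp980. In iSM KO the order was Zfp992 at 1.35 ± 0.15, Zfp982 at 1.24 ± 0.33, Zfp990 at 0.50 ± 0.17, Zfp984 at 0.32 ± 0.15 and Gm13212 at 0.14 ± 0.03 CPM per kb (SD, n = 3). Zfp992 overlapped with Zfp982, and Zfp990 with Zfp984, and the other neighbours among these 5 did not overlap. Gm13212 thus stood at rank 1 of 9 in controls and at rank 5 in iSM KO.

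Adding the 9 genes counts each read that was divided among them once, but does not recover reads divided with genes outside the 9. At 150 bases Zfp992, the largest part of the sum in iSM KO, shares windows only with such genes. Zfp980, Zfp600 and Zfp987 each share the most windows with a gene outside the 9. The summed count was 1459.67, 907.11 and 749.13 in controls and 477.74, 404.18 and 410.86 in iSM KO. Scaled to library size, the sum was at 43.53, 23.57 and 31.37 CPM in controls against 11.71, 11.56 and 11.24 CPM in iSM KO. The SD was 0.24 CPM in iSM KO and 10.06 CPM in controls (n = 3 each), and every control lay above every iSM KO library. For the sum the log2 fold change was -1.51 (standard error 0.19), between -1.70 and -1.24 with each library left out in turn. Without Gm13212 the sum was at 19.98, 12.84 and 16.71 CPM in controls against 11.17, 11.16 and 10.64 CPM in iSM KO, which did not overlap either, and its log2 fold change was -0.59 (standard error 0.15).

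The make-up of the sum differed between the groups as well as its level. Gm13212 gave 45.5% to 54.1% of the summed counts of a control library and 3.47% to 5.35% of an iSM KO library. Zfp984 gave 21.2% to 26.3% in controls and 5.65% to 12.9% in iSM KO. Zfp990 gave at most 0.27% in controls and 11.4% to 20.8% in iSM KO, while Zfp992 went from 17.2% to 19.2% in controls to 47.9% to 56.3% in iSM KO although the groups of its own level overlapped. Shares of 1 sum are tied to each other, so a share can be larger in one group with no rise in that gene's own count.

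**Figure D3:**
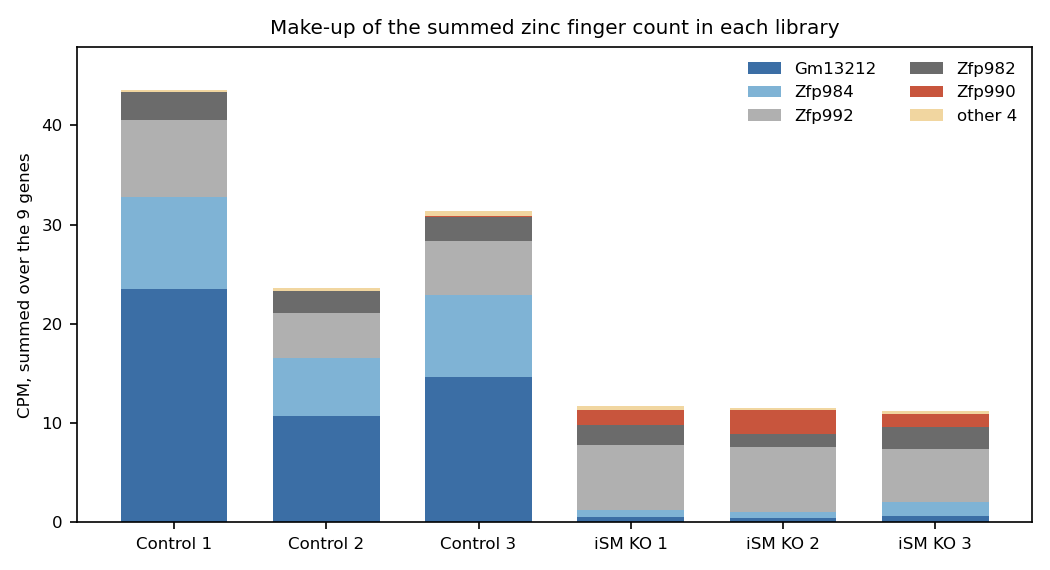
CPM summed over the 9 genes in each library, split by gene; the 4 genes with few counts are drawn together. The controls reach 43.53, 23.57 and 31.37 CPM, mostly Gm13212 and Zfp984, and the iSM KO libraries 11.71, 11.56 and 11.24 CPM, with Zfp992 as the largest part.

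The stretches before the start sites of Gm13212 and Zfp984 are printed since these genes were low together. RefSeq's table of starts (GRCm38) holds 7 of the 9 members. The stretches below end at the start that GENCODE gives for each gene or before it, so they hold no transcribed base of Gm13212 or Zfp984. The end of the Zfp984 stretch reaches just into the annotated start of the lincRNA Gm20707, at 147809840 on the same strand. Gm13212 is read from chr4:145584960-145585165 (plus strand) and Zfp984 from chr4:147809837-147810038 (minus strand), both 5′ to 3′ as transcribed. Capitals mark bases that differ from their partner, or have none, in a joint alignment of the stretches of these 7 members. Where the sequences differ in length, the gap could be placed elsewhere, so some capitals have an identical base in the other sequence.
Gm13212: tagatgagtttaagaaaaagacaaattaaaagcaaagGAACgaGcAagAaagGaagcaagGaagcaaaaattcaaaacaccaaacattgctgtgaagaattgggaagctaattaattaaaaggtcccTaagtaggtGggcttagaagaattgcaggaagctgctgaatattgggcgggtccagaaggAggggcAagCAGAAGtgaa
Zfp984: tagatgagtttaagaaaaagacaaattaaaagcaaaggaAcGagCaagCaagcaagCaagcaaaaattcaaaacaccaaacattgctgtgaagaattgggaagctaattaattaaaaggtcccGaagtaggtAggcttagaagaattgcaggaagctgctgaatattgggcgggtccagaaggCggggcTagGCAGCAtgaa

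Of 202 bases of this pair aligned in this way, 187 were identical (92.57%), and another placing of the gap could change this share. No motif was searched in them and no binding was measured.

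Neighbouring genes were described in a window from 1 Mb before the first member to 1 Mb after the last. It held 11 further C2H2 zinc finger genes, of which 4 were tested and 2 passed the threshold, both lower, and 123 other genes, of which 33 were tested and 7 passed, 2 higher and 5 lower. These counts stand beside the 2.78% of all tested genes, and the window was set with earlier results known. Of the 7, Masp2 and Rps19-ps3 passed the filter on low counts through the iSM KO group alone. Gm13238 and Smarca5-ps passed it through the controls alone. Each of these was thus tested only through the group where it is high, so nothing is read from the number that passed. The median log2 fold change was -1.57 over the 4 zinc finger neighbours and 0.02 over the 33 other genes, beside -0.01 over all tested genes.

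Among the zinc finger neighbours, Zfp991 was at 377.6, 210.8 and 257.73 counts in controls and 104.54, 98.55 and 129.98 in iSM KO, and its log2 fold change was -1.61 (standard error 0.27). Zfp979 was at 129.69, 93.2 and 73.42 counts in controls and 24.45, 16.19 and 40.36 in iSM KO, a log2 fold change of -2.12 (standard error 0.35). Neither gene's groups overlapped. Zfp933, at the end of the cluster nearest to Prdm16, was at 9.17 ± 0.86 CPM (SD, n = 3) in controls against 9.19 ± 1.11 CPM (SD, n = 3) in iSM KO, and its groups overlapped. Zfp991 shares 62.76% of its windows of 150 bases with other genes and Zfp979 9.51%, whereas Zfp933 shares 0%, so the counts of Zfp991 in particular are uncertain. Zfp933 was chosen after its values were seen.

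The pseudogene Znf41-ps (chr4:145825237-145829942), which carries zinc finger sequence but is listed here with the other genes since its description does not name it so, was at 324.48, 191.98 and 167.97 counts in controls and 37.7, 41.07 and 53.18 in iSM KO, a log2 fold change of -2.61 (standard error 0.28). It shares windows with Zfp991 and Zfp992, and its groups did not overlap. The pseudogene Gm13238 had 71 counts over the controls and 0 over the iSM KO libraries, which makes it at least 27.7-fold lower in iSM KO, taken against a floor of 3 counts over the group. Smarca5-ps, another pseudogene, had a log2 fold change of -2.28 with a standard error of 0.49, and Rps19-ps3, a ribosomal protein pseudogene, had one of 1.47 with a standard error of 0.29. Reads of processed pseudogenes can come from their parent genes, and these counts are uncertain.

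Of the protein-coding neighbours past the threshold, Masp2, a serine protease of the lectin pathway of complement, was at 2, 5.63 and 3.03 counts in controls and 64.73, 31.6 and 47.62 in iSM KO, a log2 fold change of 3.44 (standard error 0.43). Tnfrsf1b, a receptor for tumour necrosis factor, went from 10.48 ± 2.17 to 4.25 ± 1.14 CPM (SD, n = 3), and Fbxo2, an F-box protein that binds glycoproteins, from 9.68 ± 0.83 to 4.58 ± 0.77 CPM (SD, n = 3). The counts of Tnfrsf1b and Fbxo2 are whole numbers in all 6 libraries. The groups of all 7 of these genes were apart, as were those of the 2 lower zinc finger neighbours. All were picked by the threshold on the same values, and the share over all tested genes was not counted, so nothing is read from this.

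**Figure D4:**
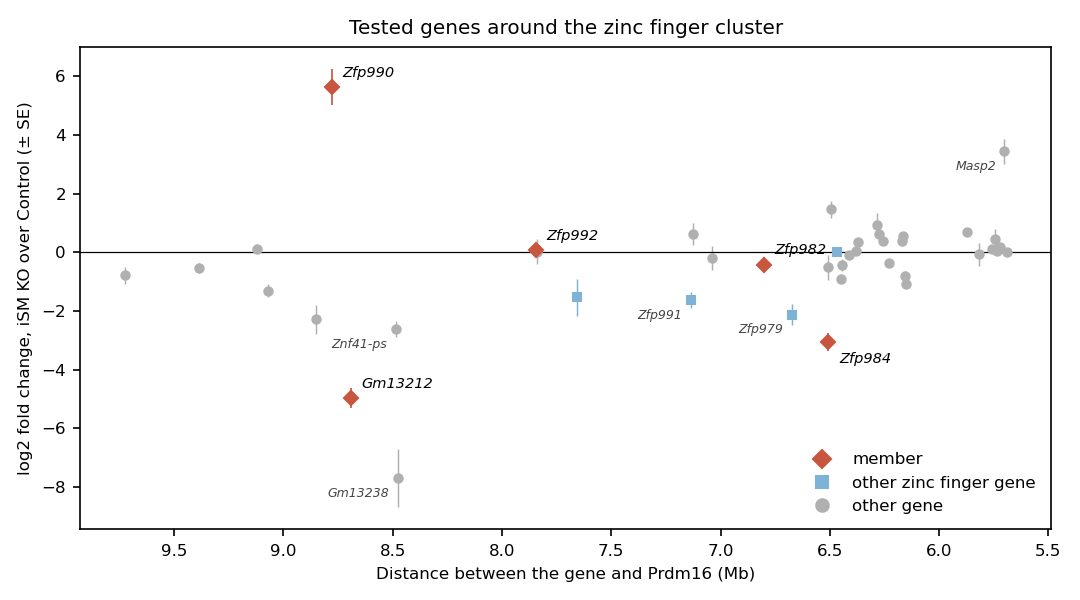
Log2 fold change (iSM KO over control) with its standard error for every tested gene of the window against the distance between the gene and Prdm16 in Mb. Diamonds are members, squares other zinc finger genes and circles other genes. Zfp990 at 5.63 and Gm13212 at -4.97 lie close together at the far end, and the values of Zfp990 and Gm13238 depend on the prior count since 1 group is at or near 0.

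Genes that KRAB zinc finger proteins are known to act through were listed next. Of 25 such genes 24 were tested and 0 passed the threshold with edgeR, with DESeq2 or with limma-voom, while 2 of the 24 had an unadjusted p under 0.05 with edgeR, beside 3669 of all 16565 tested genes. When the fold change was left aside, 7.56% of all tested genes were under an FDR of 0.05, and 1 gene of this list was. This was Mbd1, which encodes a protein that binds methylated DNA, at 25.93 ± 1.58 CPM (SD, n = 3) in controls against 35.17 ± 1.15 CPM (SD, n = 3) in iSM KO, with a log2 fold change of 0.44 (edgeR FDR = 0.0127). Trim28, the corepressor itself, was at 64.28, 65.7 and 75.85 CPM in controls against 76.66, 75.62 and 74.27 CPM in iSM KO, a log2 fold change of 0.14 (standard error 0.08, edgeR FDR = 0.360), and its groups overlapped. Setdb1, the histone methyltransferase of this complex, was at 23.79, 23.08 and 20.35 CPM in controls against 25.24, 24.87 and 25.1 CPM in iSM KO, and its log2 fold change was 0.16 (standard error 0.09, edgeR FDR = 0.329). Its groups did not overlap but it did not pass the threshold.

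A further list held 35 zinc finger genes elsewhere in the genome, taken by name as KRAB zinc finger genes. The list is not a full set, and a KRAB domain was not searched for in these genes. Of these, 31 were tested and 1 passed the threshold, lower, beside 2.78% of all tested genes. When the fold change was left aside, 2 were under an FDR of 0.05, beside 7.56% of all tested genes. Zfp995 went from 2.11 ± 0.20 to 1.04 ± 0.21 CPM (SD over n = 3 each), with a log2 fold change of -1.01 and an edgeR FDR of 0.0399, and was past the threshold in 0 of the 6 fits that left out 1 library. For Zfp938 the level was 6.76 ± 0.47 CPM in controls against 4.28 ± 0.63 CPM in iSM KO (SD over n = 3 each), with a log2 fold change of -0.66 and an edgeR FDR of 0.0354. The fold changes were below 0 for 27 of the 31, with a median of -0.20, beside 8679 of 16565 below 0 and a median of -0.01 over all tested genes.

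The genes most like the members over the 6 libraries were found by Pearson's r of log2 CPM. For the sum they were Vldlr, Pik3r1, Cntn6, Hnmt and Uchl1, with r of 0.995 to 0.999. For Gm13212 they were Mtrf1, Ggact, Slc38a11, Prodh and Cmya5 (0.996 to 0.999), and for Zfp990 they were 4930503L19Rik, Bche, Dok5, Gm19938 and Phldb2 (0.995 to 0.998). None of these 15 genes lies on chromosome 4. With 6 libraries in 2 groups, r mainly follows the split between the groups and the order within the controls, and these genes were picked as the highest of all tested genes. For Zfp990 the controls held only 0, 1 and 2 counts, so their order is within counting error.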

How the data were processed

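Bulk RNA-seq of 3 control and 3 iSM KO aortas was analysed. Per the study's methods and the submitters' processing notes (bcl2fastq, DRAGEN, mm10), the authors aligned paired-end reads against an Ensembl mouse reference and deposited estimated counts per gene, with no normalization, which need not be whole. The sources used here do not say how reads matching more than 1 gene were divided, and whether counting used strand is not given in the sources used here. The deposited estimated counts were rounded to whole numbers and a gene was kept if every library of 1 group or the other held more than 10 counts of it. Differences were fitted on the 6 libraries with the quasi-likelihood test of edgeR 4.0.16 (R 4.3.3, TMM scaling, no covariate). P-values were adjusted by Benjamini and Hochberg's method over the 16565 genes, and the threshold was an FDR under 0.05 together with a fold change over 2. Standard errors are the log2 fold change divided by the root of the F statistic.

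The 9 genes, the window and the gene lists were chosen with earlier results of these data known. Named are the 9 genes, Prdm16, window genes past the threshold, list genes with an FDR under 0.05, Trim28 and Setdb1, and the 5 genes most like the sum, Gm13212 and Zfp990. Outside this rule, Gm20707 is named for its overlap with Zfp984, and Zfp933 was chosen after its values were seen. Positions, exon lengths and transcripts come from GENCODE M21 (GRCm38) and starts from RefSeq. Coding sequences and the stretches before the starts were aligned with MAFFT 7.526. A zinc finger gene of the window names this in its description or has 3 or more C2H2 matches. Shares and ratios of counts have 95% intervals (Wilson and exact, SciPy 1.17.1), which cover counting error only. Alternatives were DESeq2 1.42.0, limma-voom (limma 3.58.1), DESeq2's size factors, other filters, unrounded counts, leaving out Rn7s1, Rn7s2 and Rn7sk, the replicate number as a block, and each library left out in turn. No pair of libraries of a group differed by as little as sampling noise. The sample titles give the tissue, the baseline state, the group and the replicate number, and nothing more of the mice. The p-values thus measure the spread between these samples. Exon 9 reads were not analysed here.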

Additional observations from a re-analysis of the deposited data

How the results depend on the processing

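The number of members past the threshold was 3 under the other tools, scalings and filters and with each library left out in turn, which is a description, since the members were chosen with this contrast known, and no sign of stability. The number of window zinc finger genes past it ranged from 2 to 3 and of other window genes from 5 to 7 with 1 library left out. With no filter on low counts, 10 other window genes of 91 tested passed it. At any fold change 13 of 33 other window genes tested had an FDR under 0.05, since the limit on fold change is dropped. So had 1 of 24 KRAB silencing genes and 2 of 31 KRAB zinc finger genes elsewhere, beside 7.56% of all tested genes. The window and the lists were chosen with earlier results known, so these counts are a description. The KRAB silencing genes past the threshold were 0 in each of the 6 fits with a library left out. The KRAB zinc finger genes elsewhere past it were 0 in all 6 of those fits and 0 with the replicate block. The log2 fold change of Prdm16 ranged from -1.17 to -0.92 with 1 library left out. That of the sum was -0.59 without Gm13212 and -1.13 over all zinc finger genes of the window, and -1.70 to -1.24 with 1 library left out. Zfp992 ranged from -0.10 without Control replicate 2 to 0.32 without Control replicate 1, and Zfp990 was 6.66 without Control replicate 3, and the cause was not tested. Libraries with the same replicate number did not deviate together (correlations of -0.13, -0.05 and -0.11 between the deviations of controls and iSM KO). With n = 3 per group this shows no pairing by replicate number but cannot exclude it. As a block, the replicate numbers gave log2 fold changes of -1.04 for Prdm16 and -1.47 for the sum, and 5 other window genes past the threshold. Counts under about 10 limit Zfp980, Zfp600, Zfp988 and Zfp987.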
